A study of Mus musculus with 13 samples.

Results

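The genes of DNA replication and mitosis were followed as a list of 45 members in mouse tumours and tumour-draining lymph nodes (tdLN). The list holds 23 genes that license, copy or supply the building blocks of DNA and 22 genes that drive chromosomes through mitosis. Members were found by Ensembl identifier, matched to gene symbols through GENCODE M21, and 45 of 45 were present among the 49315 genes of the count tables. All 45 had enough reads to be tested in both comparisons, and the lowest count of any member in any library was 108 reads, for Orc1.

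The libraries formed 3 groups of 3: Foxp3ΔJag1 tdLN, Foxp3Ctrl tumours and Foxp3Ctrl tdLN. All mice were female and carried Foxp3eGFP-Cre-ERT2, a tamoxifen-inducible Cre made in Foxp3-expressing regulatory T cells; Foxp3ΔJag1 mice had both Jag1 alleles floxed (fl/fl), and the Foxp3Ctrl mice were given as fl/wt in the treatment text and as WT in the genotype field. Both genotypes were dosed with tamoxifen 5 times (0.1 mg per g) when 6 to 8 weeks old. After 9 days without drug, 200000 cells of the mouse melanoma line B16F10 in matrigel were placed in the skin, with mice then 6 to 11 weeks old. RNA came from whole tissue, so cells without the Cre were measured together with those that had it; the sources used here do not give the day of collection. The Foxp3Ctrl tumours and nodes came from the same 3 mice, and tumours of Foxp3ΔJag1 mice were not analysed here.

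Before a cell divides it loads the MCM helicase at origins with the help of ORC1, CDC6 and CDT1, and then fires it with CDC45 and the GINS complex so that polymerases, held on DNA by the PCNA clamp, can copy each strand. Cyclin B and CDK1 later start mitosis, in which kinetochores, motor proteins, Aurora and Polo kinases and the spindle checkpoint place 1 copy of each chromosome in each daughter cell. Replication genes are classically transcribed in late G1 through E2F factors, and mitosis genes later through the MuvB proteins with B-MYB and FOXM1, which act at a promoter element called CHR, often beside CCAAT boxes bound by NF-Y.

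Promoters of both kinds are shown as examples of the E2F and CHR elements, for the 2 members of each module with the smallest tissue p-value that held an E2F match (replication) or a CHR match (mitosis). They come from the RefSeq promoter table of GRCm38.p6, read along the gene's strand, and hold 140 bases before the transcription start and 20 bases from it. Capitals mark matches, on either strand, to E2F words, CHR words and the CCAAT box; Rfc3 (chr5:151651189-151651348, minus strand) encodes a clamp loader subunit, Cdc6 (chr11:98908011-98908170, plus strand) an origin licensing factor, Bub1 (chr2:127831840-127831999, minus strand) a checkpoint kinase and Cenpf (chr1:189688067-189688226, minus strand) a kinetochore protein.
Rfc3: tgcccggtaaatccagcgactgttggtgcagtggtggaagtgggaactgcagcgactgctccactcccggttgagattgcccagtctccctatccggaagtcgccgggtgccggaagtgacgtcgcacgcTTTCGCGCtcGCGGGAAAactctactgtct
Cdc6: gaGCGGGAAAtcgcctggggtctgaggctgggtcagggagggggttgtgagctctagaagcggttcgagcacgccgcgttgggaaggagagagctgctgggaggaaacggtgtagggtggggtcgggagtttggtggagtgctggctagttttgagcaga
Bub1: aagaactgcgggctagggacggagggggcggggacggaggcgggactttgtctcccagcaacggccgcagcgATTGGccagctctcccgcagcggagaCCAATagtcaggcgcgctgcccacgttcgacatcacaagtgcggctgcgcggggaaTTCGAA
Cenpf: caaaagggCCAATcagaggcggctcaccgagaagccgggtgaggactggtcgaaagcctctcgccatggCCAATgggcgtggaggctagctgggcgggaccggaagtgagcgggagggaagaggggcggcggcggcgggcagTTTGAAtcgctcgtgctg

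Counting the start base as 0, Rfc3 held an E2F word at -10 to -3 and another, on the opposite strand, at 0 to 7. The E2F word of Cdc6 lay at -138 to -131. In Bub1 the CHR word was at 14 to 19 and CCAAT boxes at -68 to -64 and -42 to -38, while Cenpf had its CHR word at 2 to 7 and CCAAT boxes at -132 to -128 and -71 to -67. Beyond the stretch shown, Rfc3 also held a CHR word at -189 to -184 and a CCAAT box at -229 to -225. The promoters were chosen for holding an E2F or a CHR word, so these examples do not compare the modules.

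The same words were counted, on both strands, from 250 bases before to 50 bases after the start in the 37 members that matched the table (19 replication, 18 mitosis) and in all its 27025 genes. Tpx2, Ccna2, Mcm4, Ccne2, Gins2, Gins1, Aurkb and Foxm1 had no entry. An E2F word (TTTCCCGC or TTTGGCGC or TTTCGCGC or TTTGCCGC) stood in 9 of 19 replication promoters (47.4%), 1 of 18 mitosis promoters (5.56%, Cdk1) and 2.60% of all genes. A CHR word (TTTGAA or TTCGAA) showed the opposite order, with 4 of 19 replication promoters (21.1%), 14 of 18 mitosis promoters (77.8%) and 21.7% of all genes. CCAAT was frequent in both modules, in 13 of 19 (68.4%) and 16 of 18 (88.9%), against 41.1% of all genes. The core GGCGGGAA, which can overlap an E2F word and did so in 1 of its 4 member matches, was in 4 of 19 replication promoters, 0 of 18 mitosis promoters and 2.52% of all genes. In the shorter window of 150 bases before the start, CHR remained in 5 of 18 mitosis promoters (27.8%), against 1 of 19 replication promoters (5.26%) and 11.2% of all genes. This window also leaves out the bases after the start, where the CHR words of Bub1 and Cenpf lie. There, E2F words stood in 31.6% of replication promoters, 5.56% of mitosis promoters and 1.44% of all genes. CCAAT stood in 57.9%, 88.9% and 27.7%, in the same order. A match is a description of letters and not of binding.

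**Figure D1:**
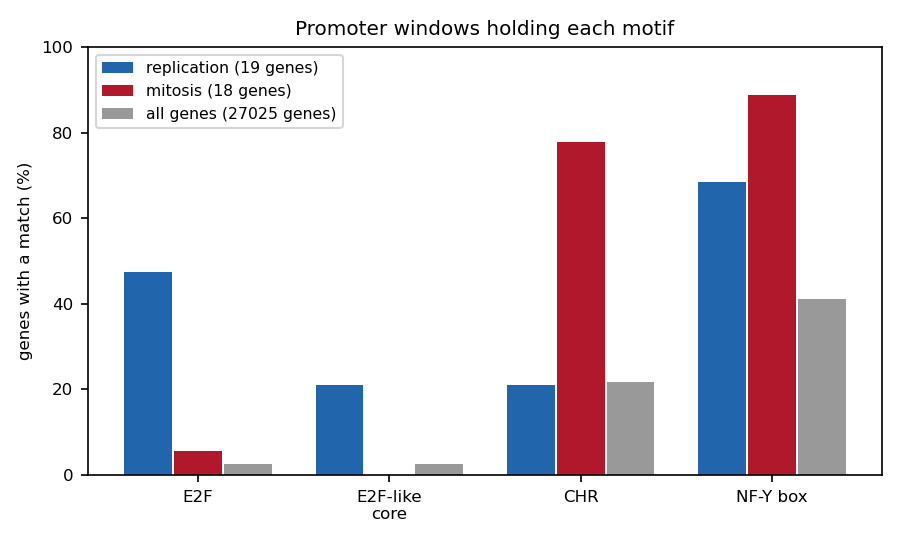
Share of genes (percent, y axis) whose promoter window, 250 bases before to 50 after the start, holds each motif (x axis), for 19 replication members, 18 mitosis members and all 27025 genes; the NF-Y box is the CCAAT word. E2F words stood in 47.4% of replication promoters and CHR words in 77.8% of mitosis promoters.

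Total counts ran between 32117478 and 44540888 per library, and levels are given as CPM, the count divided by the library total and scaled to 1000000 counts. Marker genes separated the tissues as labelled: 8 melanoma and melanocyte markers summed to 17680 to 23120 CPM in tumours and 10.9 to 36.6 CPM in nodes, and 7 B cell markers to 2.32 to 4.07 CPM in tumours and 3421 to 3875 CPM in nodes. Jag1 itself stood at 27.8, 20.7 and 23.8 CPM in Foxp3ΔJag1 nodes, against 22, 23.2 and 24.4 CPM in Foxp3Ctrl nodes, so the whole-tissue level did not show the deletion; these counts cannot tell which cells carried the RNA. Tests were edgeR quasi-likelihood fits with Benjamini-Hochberg adjustment over all genes, called at 0.05. Their p-values set the difference between groups against the spread between mice within each group. The tissue fit had no term for the mouse, although its tumours and nodes came from the same mice. A fit with that term was run as an alternative.

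In Foxp3Ctrl tumours, 44 of 45 members rose relative to Foxp3Ctrl nodes and none fell, with edgeR. Across all 18566 genes tested, 35.6% were called higher in tumours and 37.6% lower. The 3 tumour libraries lay above all 3 nodes for 44 of 45 members, against 36.5% of all genes. The median log2 fold change was 0.95 for the 23 replication members and 1.49 for the 22 mitosis members, against -0.05 for all genes tested. In bulk tissue, fewer cells of a type and less RNA per cell cannot be told apart, and the tumours held melanoma cells where the nodes held lymphocytes. The share of dividing cells in either tissue was not measured.

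**Figure D2:**
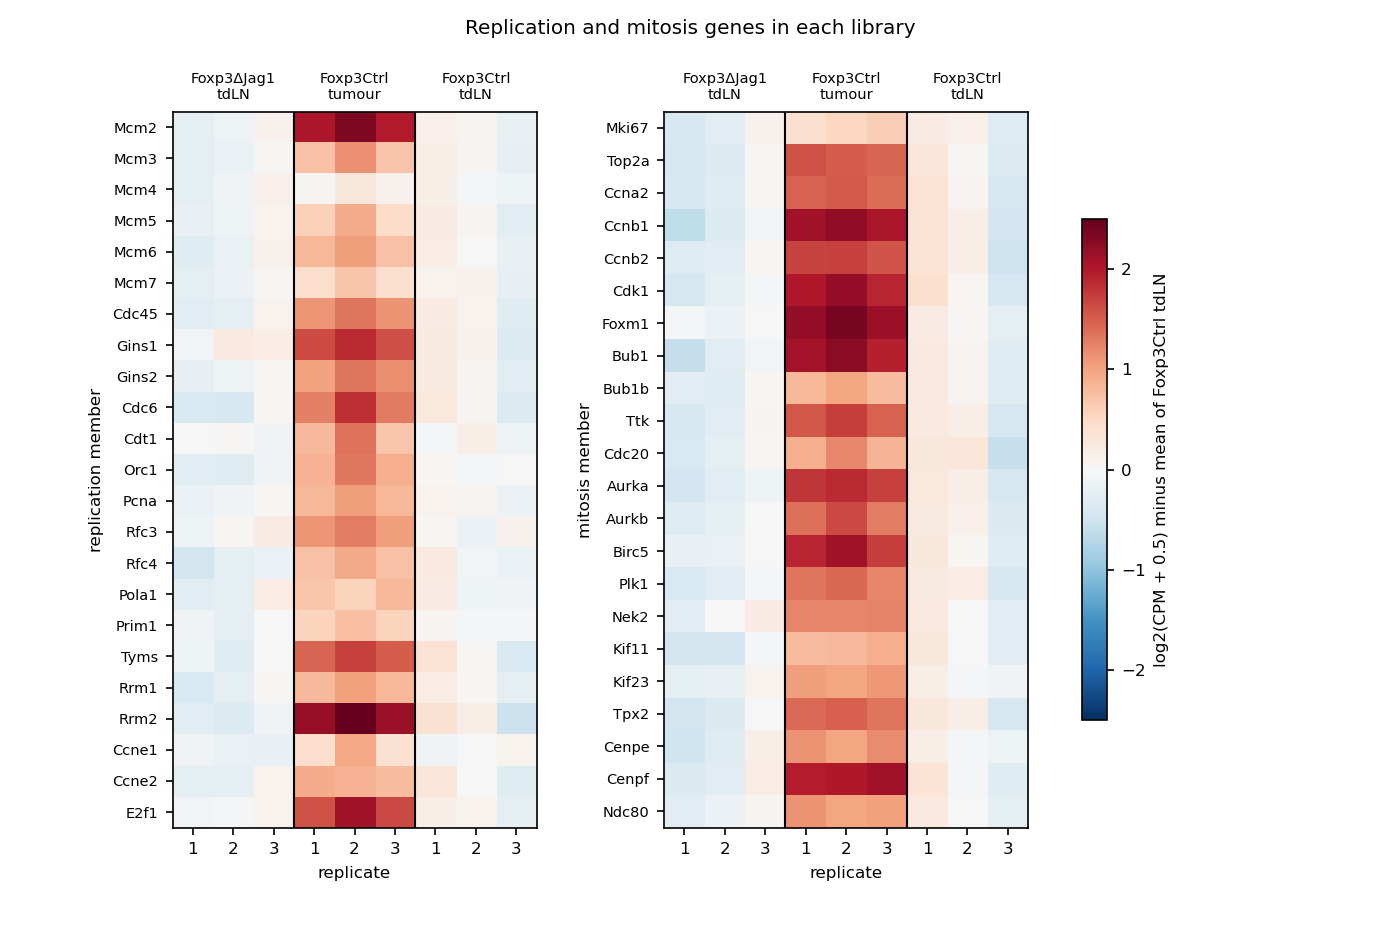
Each row is a member and each column a library; colour gives log2(CPM + 0.5) minus the mean of the 3 Foxp3Ctrl tdLN libraries. Tumour columns are red for all members except Mcm4, where they are near white, and node columns of both genotypes lie around 0.

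The MCM helicase, a ring of subunits from Mcm2 to Mcm7, did not move as a unit. Mcm2 (chr6:88883474-88898780) had 396, 488 and 385 CPM in tumours, against 106, 101 and 84.9 CPM in nodes, a 4.51-fold rise (log2 fold change 2.17 ± 0.155 SE, edgeR adjusted p = 8.52e-06). Mcm4 (chr16:15623897-15637400) had 94.2, 109 and 96.1 CPM in tumours, against 99.1, 87.4 and 82.6 CPM in nodes. These groups overlapped, and Mcm4 was the only member not called (log2 fold change 0.21 ± 0.118 SE, edgeR adjusted p = 0.141). The ratio of Mcm2 to Mcm4 CPM was 4.20, 4.46 and 4.01 in tumours, against 1.07, 1.15 and 1.03 in nodes. It restates the unlike log2 fold changes of these genes. Between these extremes, Mcm7 rose by 0.57, Mcm5 by 0.71, Mcm3 by 0.93 and Mcm6 by 0.93 on the log2 scale.

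**Figure D3:**
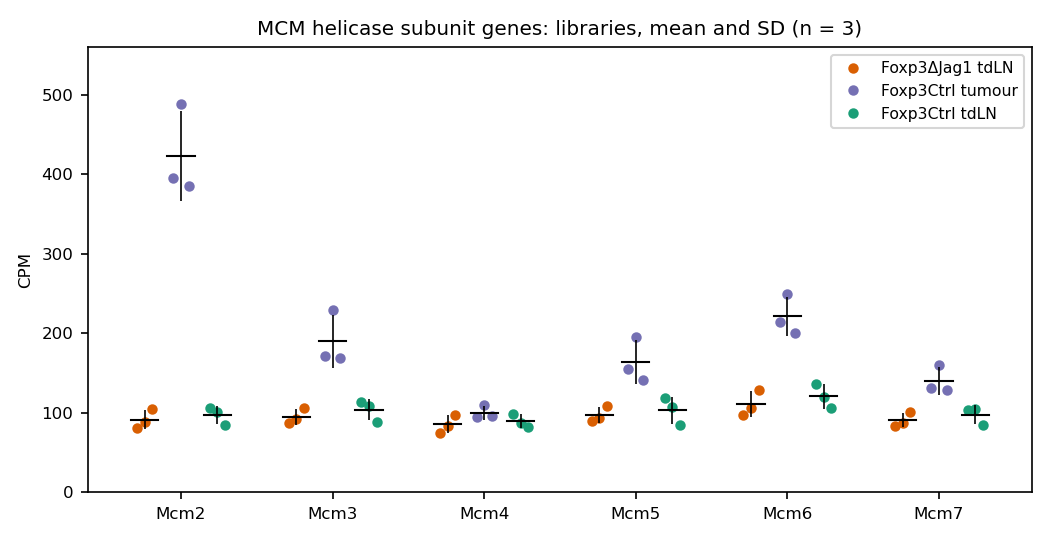
CPM (y axis) of the 6 MCM subunit genes in each library (points), with group mean and SD (bars, n = 3). Mcm2 stands at 385 to 488 CPM in Foxp3Ctrl tumours and at 81.1 to 106 CPM in all nodes, while Mcm4 overlaps between all groups.

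All 6 origin licensing and helicase activation genes were called higher in tumours, against 35.6% of all genes. Gins1, a GINS subunit, averaged 20.4 ± 2.12 CPM in tumours and 5.97 ± 1.24 CPM in nodes (SD, n = 3 each), the largest rise among these genes (log2 fold change 1.82, edgeR adjusted p = 0.000109). Cdc6, which loads the helicase with Cdt1, reached 34.9, 52.4 and 35.7 CPM in tumours, against 17.2, 15.0 and 11.2 CPM in nodes. Replicate 2 was the highest tumour for this gene, and no tumour overlapped a node. Cdt1 and Orc1 rose by 1.03 and 1.20 on the log2 scale and Cdc45 and Gins2 by 1.25 and 1.26; 67.3% of the exon bases of Gins2 are shared with Gse1 on the opposite strand, and the sources used here do not say whether strand was used in counting.

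Pcna, the sliding clamp, had 279, 323 and 278 CPM in tumours, against 165, 163 and 142 CPM in nodes (log2 fold change 0.95 ± 0.125 SE, edgeR adjusted p = 0.000229). Per kilobase of exon it was the most abundant member in every group, at 61.8 ± 4.29 CPM per kb in Foxp3ΔJag1 nodes, 122 ± 10.8 in Foxp3Ctrl tumours and 65.4 ± 5.43 in Foxp3Ctrl nodes. Orc1 was the lowest in every group, and both ranks held with the longest transcript as length. Rfc3, the clamp loader gene shown above, had 47.7, 53.7 and 46.1 CPM in tumours, against 22.6, 19.9 and 23.6 CPM in nodes (log2 fold change 1.22 ± 0.106 SE, edgeR adjusted p = 2.37e-05). Its partner Rfc4 rose by 0.87 on the log2 scale, and the primase-polymerase genes Pola1 and Prim1 by 0.76 and 0.69.

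The nucleotide supply genes held the largest estimate of the list. Rrm2 (chr12:24708241-24714146), the regulatory subunit of ribonucleotide reductase, had 294, 374 and 289 CPM in tumours, against 84.3, 71.4 and 44.2 CPM in nodes (log2 fold change 2.31 ± 0.271 SE, edgeR adjusted p = 0.000203). The estimates of Foxm1 (2.30), Mcm2 (2.17), Bub1 (2.17), Ccnb1 (2.14), Cenpf (2.07) and Cdk1 (2.07) lay within that SE. Its partner Rrm1, the catalytic subunit, rose by 0.94 on the same scale, and Tyms, which makes thymidylate, by 1.60. Per kilobase, Rrm2 was second to Pcna in tumours, at 115 ± 17.2 CPM per kb, and stood at 24.0 ± 7.39 CPM per kb in Foxp3Ctrl nodes (SD, n = 3 each).

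Among genes of S phase entry, E2f1, the activating transcription factor, reached 58.4, 83.6 and 61.0 CPM in tumours, against 21.6, 20.3 and 16.1 CPM in nodes (log2 fold change 1.86 ± 0.195 SE, edgeR adjusted p = 7.37e-05). Ccne1, the cyclin E1 gene, rose less, with 28.2, 41.0 and 27.2 CPM in tumours and 19.5, 20.6 and 22.1 CPM in nodes (log2 fold change 0.69, edgeR adjusted p = 0.00714). Tumour replicate 2 was again the highest for both genes, as it was for 21 of 23 replication members and 14 of 22 mitosis members. Leaving it out lowered the replication median to 0.91 and changed no call.

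Of the mitosis members, 22 of 22 were called higher in tumours, against 35.6% of all genes. Foxm1 (chr6:128362967-128376146), a transcription factor of the mitosis program, had 131, 147 and 125 CPM in tumours, against 32.3, 28.7 and 24.0 CPM in nodes, a 4.92-fold rise (log2 fold change 2.30 ± 0.15 SE, edgeR adjusted p = 5.41e-06). Ccnb1, cyclin B1, reached 112, 122 and 108 CPM in tumours, against 32.8, 28.6 and 18.5 CPM in nodes. Its kinase Cdk1 followed with 92.4, 105 and 85.7 CPM in tumours and 29.9, 23.5 and 16.5 CPM in nodes. For both genes every tumour lay far above every node, with log2 fold changes of 2.14 (edgeR adjusted p = 9.88e-05) and 2.07 (edgeR adjusted p = 0.000138).

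Bub1, a kinase of the spindle checkpoint, had 60.8, 69.4 and 55.9 CPM in tumours, against 16.7, 14.7 and 11.3 CPM in nodes (log2 fold change 2.17 ± 0.182 SE, edgeR adjusted p = 2.01e-05). Its relative Bub1b rose by 0.92 on the log2 scale, and Cdc20, the activator of the anaphase-promoting complex, by 1.00. Aurka, the centrosomal Aurora kinase, stood at 58.2, 61.8 and 55.1 CPM in tumours and 19.99, 18.7 and 12.2 CPM in nodes (log2 fold change 1.83). The passenger complex genes Birc5 and Aurkb rose by 1.98 and 1.49. Plk1, the Polo kinase, had 78.0, 83.5 and 72.6 CPM in tumours and 36.1, 34.9 and 23.1 CPM in nodes (log2 fold change 1.36). Nek2, a centrosome kinase, was nearly the same in the 3 tumours, at 49.9, 49.9 and 50.1 CPM, and at 24.95, 21.3 and 17.5 CPM in nodes.

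Kinetochore and spindle genes spanned a wide range. Cenpf had 94.4, 97.1 and 104 CPM in tumours, against 30.2, 23.2 and 19.3 CPM in nodes (log2 fold change 2.07 ± 0.178 SE, edgeR adjusted p = 2.51e-05). Cenpe, a kinetochore motor, and Ndc80, which grips microtubules, rose by 1.17 and 1.11. The motors Kif11 and Kif23 rose by 0.88 and 1.10, and Tpx2, a spindle assembly factor that activates Aurora A, by 1.44.

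Mki67 (chr7:135689784-135716361), the gene of the proliferation marker Ki-67, had the smallest rise of the mitosis members. It had 269, 292 and 309 CPM in tumours, against 233, 220 and 162 CPM in nodes (log2 fold change 0.55 ± 0.166 SE, edgeR adjusted p = 0.0172). Top2a, which untangles DNA and is often read beside Mki67, had 454, 430 and 415 CPM in tumours and 186, 155 and 120 CPM in nodes (log2 fold change 1.55, edgeR adjusted p = 0.000122). The ratio of Foxm1 to Mki67 CPM was 0.487, 0.505 and 0.405 in tumours, against 0.139, 0.130 and 0.148 in nodes. Foxm1 and Mki67 had the largest and smallest log2 fold changes of the mitosis members, and the ratio restates that difference. The next smallest among mitosis members was Kif11, at 0.88.

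**Figure D4:**
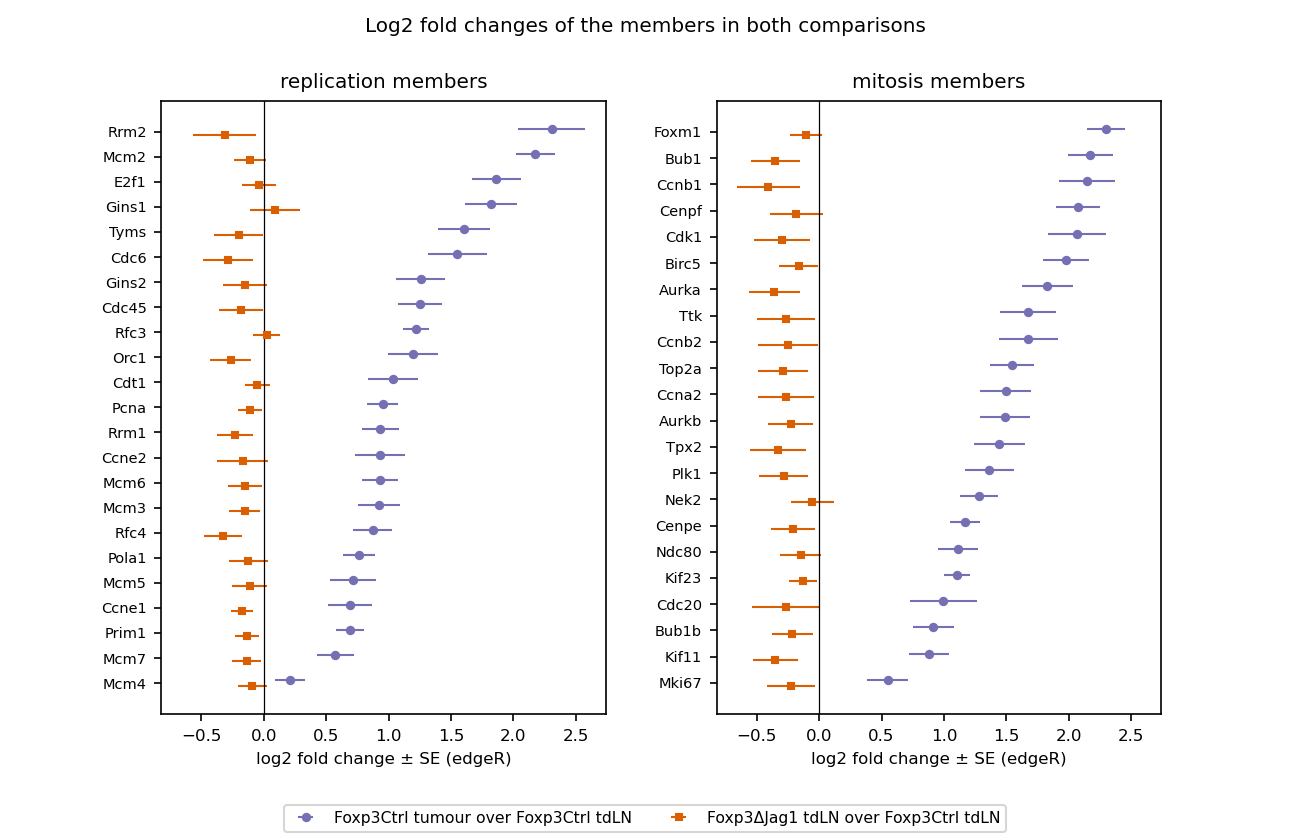
Members (y axis) with their edgeR log2 fold changes and SE (x axis), Foxp3Ctrl tumour over Foxp3Ctrl tdLN (circles) and Foxp3ΔJag1 tdLN over Foxp3Ctrl tdLN (squares). Tumour values span 0.21 (Mcm4) to 2.31 (Rrm2), and node genotype values span -0.41 (Ccnb1) to 0.09 (Gins1).

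Further genes of the same machinery, from lists outside the 45, moved mostly the same way. Of 36 other replication genes, 27 were called higher and 2 lower (median log2 fold change 0.83). Of 40 other mitosis genes, 38 were called higher and 1 lower (median 1.32). Across all genes tested, 35.6% were called higher and 37.6% lower, with a median of -0.05. These genes come from the same libraries as the members, so they are not separate observations. Anln, the anillin of the cleavage furrow, had 112, 120 and 112 CPM in tumours, against 12.1, 11.0 and 8.18 CPM in nodes (log2 fold change 3.51, edgeR adjusted p = 1.59e-06). Mcm10 and Chaf1b rose by 2.05 and 2.01, and Spc25 and Knstrn by 2.08 and 1.92.

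Those called lower were Pold1, the catalytic subunit of DNA polymerase delta, Orc3, an origin recognition subunit, and Smc4, a condensin subunit. Pold1 had 70.8, 90.4 and 63.9 CPM in tumours and 137, 140 and 131 CPM in nodes, and Smc4 had 202, 184 and 203 CPM in tumours and 359, 287 and 387 CPM in nodes. Their edgeR log2 fold changes were -0.80 (adjusted p = 0.00130) and -0.75 (adjusted p = 0.000413), and that of Orc3 was -0.35 (adjusted p = 0.00997). For all 3 genes every tumour lay below every node.

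Of 18 E2F, pocket protein and MuvB genes, which regulate both programs, 7 rose and 5 fell in tumours (median log2 fold change 0.13), near the shares of all genes called higher (35.6%) and lower (37.6%). E2f2 fell to 15.7, 20.3 and 17.5 CPM in tumours, against 77.2, 81.2 and 64.7 CPM in nodes (log2 fold change -2.01, edgeR adjusted p = 1.31e-05), while E2f3 rose by 1.44 and the repressor E2f6 by 1.26. Rb1, the retinoblastoma pocket protein gene, fell to 27.4, 17.2 and 23.5 CPM in tumours, against 69.9, 57.8 and 65.0 CPM in nodes (log2 fold change -1.45). Rbl2, Lin37 and E2f4, parts of the quiescence repressor complex DREAM, had log2 fold changes of -0.82, -0.94 and -0.70 in the same test. The genes named here include all 5 that fell but only some of the 7 that rose. Of the 18 genes, 11 had log2 fold changes above 0. The DREAM complex as a whole was not tested.

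Tumour stroma varied between the 3 tumours. Fibroblast markers (6 genes) summed to 2968, 1604 and 1039 CPM in tumours, against 762, 912 and 452 CPM in nodes, and 6 adipocyte markers to 287, 320 and 33.6 CPM in tumours, against 20.7, 83.2 and 199 CPM in nodes. Of the 6 fibroblast markers, 4 were called higher and 2 lower in tumours, against 35.6% and 37.6% of all genes. Of the 6 adipocyte markers, 0 were called. The germinal centre B cell list, whose cells divide fast, summed to 75.9 to 86.8 CPM in tumours, with Rgs13 at 0 in all 3, and to 235 to 283 CPM in Foxp3Ctrl nodes. EdgeR called 7 of these 8 markers lower and 1 higher in tumours, against 37.6% and 35.6% of all genes. In the same tumours 7 B cell markers summed to 2.32 to 4.07 CPM. The germinal centre sum there is thus not read as a level of those cells. The part of these cell types in the members' differences was not tested.

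In the nodes, deletion of Jag1 in Foxp3-expressing cells went with no called member. EdgeR called 0 of 45 members, against 7 of 18440 genes tested (0.038%), and 0 of 45 had an unadjusted p under 0.05, against 3.15% of all genes. DESeq2 and limma also called 0 of 45. Log2 fold changes of Foxp3ΔJag1 over Foxp3Ctrl nodes lay below 0 for 43 of 45 members, against 51.1% of all genes, with Gins1 (0.09) and Rfc3 (0.02) above 0. The medians were -0.15 for replication members and -0.26 for mitosis members, against -0.005 for all genes. Members that share 1 library's level move together, so this count of signs is not 45 separate observations.

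Single members show how far the nodes overlapped. Ccnb1, with the lowest log2 fold change, had 16.4, 20.2 and 24.8 CPM in Foxp3ΔJag1 nodes, against 32.8, 28.6 and 18.5 CPM in Foxp3Ctrl nodes (log2 fold change -0.41 ± 0.251 SE, edgeR adjusted p = 0.953). Aurka had 11.8, 13.6 and 15.1 CPM in Foxp3ΔJag1 nodes and 19.99, 18.7 and 12.2 CPM in Foxp3Ctrl nodes. In both genes Foxp3Ctrl replicate 3 lay within the Foxp3ΔJag1 range, while the other two Foxp3Ctrl nodes lay above it. Mki67 had 153, 166 and 217 CPM in Foxp3ΔJag1 nodes and 233, 220 and 162 CPM in Foxp3Ctrl nodes, and Mcm2 had 81.1, 89.1 and 105 CPM in Foxp3ΔJag1 nodes and 106, 101 and 84.9 CPM in Foxp3Ctrl nodes. The groups overlapped for both genes; Foxp3Ctrl replicate 3 lay within the Foxp3ΔJag1 range for both, and for Mcm2 so did Foxp3Ctrl replicate 2.

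The smallest unadjusted edgeR p-values were 0.0635 for Rfc4, the clamp loader gene, 0.0869 for Kif11 and 0.0892 for Ccne1. Rfc4 had 10.2, 11.9 and 12.62 CPM in Foxp3ΔJag1 nodes and 16.7, 13.4 and 12.61 CPM in Foxp3Ctrl nodes, so the groups met at replicate 3 of each. Kif11, the spindle motor gene, had 34.3, 34.4 and 45.8 CPM in Foxp3ΔJag1 nodes and 57.6, 47.1 and 38.8 CPM in Foxp3Ctrl nodes. Orc1 was the only member whose groups did not overlap, with 3.36, 3.26 and 3.88 CPM in Foxp3ΔJag1 nodes and 4.30, 4.02 and 4.12 CPM in Foxp3Ctrl nodes, against 3.18% of all genes that were lower in every Foxp3ΔJag1 node. Its log2 fold change was -0.27 ± 0.165 SE (edgeR adjusted p = 0.953). Foxm1 was close to level, at 27.3, 25.3 and 27.8 CPM in Foxp3ΔJag1 nodes and 32.3, 28.7 and 24.0 CPM in Foxp3Ctrl nodes. The other lists had no call either. Log2 fold changes lay below 0 for 28 of 36 other replication genes (median -0.05) and 37 of 40 other mitosis genes (median -0.19). They also lay below 0 for 15 of 18 E2F, pocket protein and MuvB genes (median -0.12). Of all genes tested, 51.1% lay below 0, with a median of -0.005. The lists come from the same nodes as the members, so their signs are not separate observations.

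The members ranked the libraries within each genotype. Foxp3ΔJag1 replicate 3 was the highest of its group for 42 of 45 members, including all 22 mitosis members. Foxp3Ctrl replicate 1 was the highest of all 6 nodes for 38 of 45, and Foxp3Ctrl replicate 3 the lowest of its group for 40 of 45, again with all 22 mitosis members. Without Foxp3Ctrl replicate 1 the medians were -0.07 (replication) and -0.12 (mitosis) and 39 of 45 lay below 0. Without Foxp3Ctrl replicate 3 they were -0.25 and -0.46, and 27 members had an unadjusted edgeR p under 0.05, still with 0 called. That fit called 21 of all genes tested. Its share of all genes with an unadjusted p under 0.05 was not determined, so the 27 has no background beside it. Leaving out Foxp3ΔJag1 replicate 1 gave medians of -0.09 and -0.16, and leaving out Foxp3ΔJag1 replicate 3 gave -0.21 and -0.38. The size of the node difference thus depended on single nodes of both genotypes.

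Levels of cell type markers also varied between these nodes, with none called. All 8 plasma cell and plasmablast markers had log2 fold changes below 0, and they summed to 1394, 1072 and 1013 CPM in Foxp3ΔJag1 nodes, against 1829, 1844 and 788 CPM in Foxp3Ctrl nodes. Foxp3Ctrl replicate 3 was the lowest control both for these markers and for mitosis members, whereas Foxp3ΔJag1 replicate 3 was the lowest of its group for these markers and the highest for mitosis members. Germinal centre B cell markers summed to 221, 255 and 324 CPM in Foxp3ΔJag1 nodes and 283, 235 and 269 CPM in Foxp3Ctrl nodes, and 9 T cell markers to 1874, 1650 and 1773 CPM in Foxp3ΔJag1 nodes, against 1537, 1422 and 1852 CPM in Foxp3Ctrl nodes. All tested endothelial and lymphatic (7), fibroblast (6), epithelial (6) and erythroid (5) markers had log2 fold changes below 0 as well. Most T cell (8 of 9), germinal centre B cell (5 of 8) and adipocyte (3 of 4) markers tested lay above 0. Below 0 lay 4 of 7 B cell, 6 of 8 macrophage and monocyte, 5 of 7 neutrophil and 3 of 4 melanoma markers. Across all genes tested, 51.1% lay below 0. Whether any of these cell types had a part in the members' node values was not tested.

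Foxp3Ctrl replicate 3 also stood apart for epithelial and for melanoma markers. The epithelial sum was 13.8, 14.3 and 18.8 CPM in Foxp3ΔJag1 nodes, against 18.3, 48.9 and 156 CPM in Foxp3Ctrl nodes. Melanoma and melanocyte markers summed to 17.1, 16.6 and 13.5 CPM in Foxp3ΔJag1 nodes, against 10.9, 15.3 and 36.6 CPM in Foxp3Ctrl nodes. Among them, Dct had 7.95 CPM in Foxp3Ctrl replicate 3 and at most 0.286 CPM in any other node. Adipocyte markers summed to 251, 25.2 and 20.6 CPM in Foxp3ΔJag1 nodes and 20.7, 83.2 and 199 CPM in Foxp3Ctrl nodes, highest in replicate 1 of the Foxp3ΔJag1 group and replicate 3 of the Foxp3Ctrl group. Those replicates were the lowest of their groups for 20 and 22 of the 22 mitosis members. The part of these markers in the result was not tested.

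Set side by side, the modules differed in tumours and little in nodes. Per library, the median log2 difference from the Foxp3Ctrl node mean was 0.83, 1.15 and 0.82 for replication members and 1.44, 1.52 and 1.37 for mitosis members in the 3 tumours. In Foxp3ΔJag1 nodes it was -0.23, -0.17 and 0.05 for replication members and -0.39, -0.28 and 0.03 for mitosis members. In Foxp3Ctrl nodes it was 0.18, 0.06 and -0.20 for replication members and 0.25, 0.06 and -0.33 for mitosis members. Every tumour thus stood higher for mitosis than for replication members, whereas nodes that were high or low for one module were so for the other, with a wider swing in mitosis members.

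**Figure D5:**
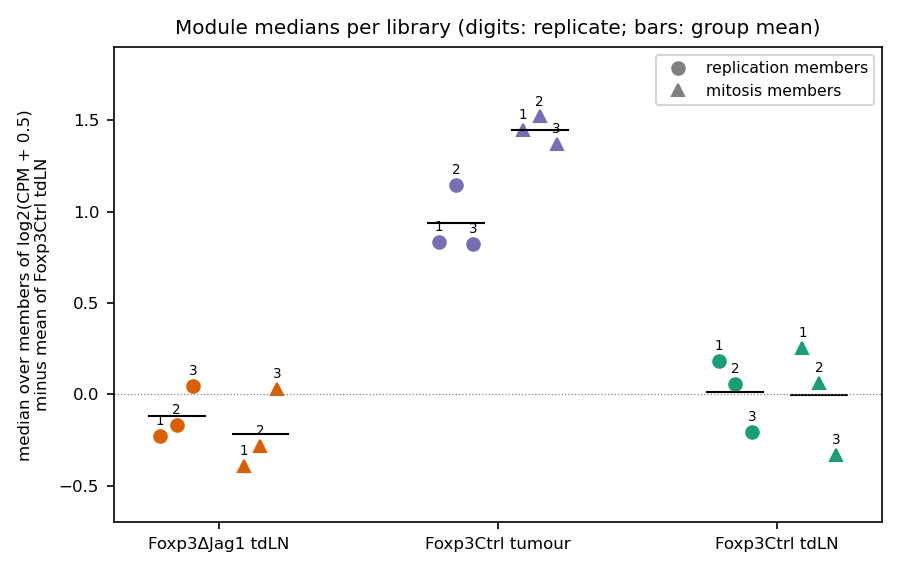
Median over the members of each module of log2(CPM + 0.5) minus the Foxp3Ctrl tdLN mean (y axis), by group (x axis), with circles for 23 replication and triangles for 22 mitosis members; digits give the replicate and bars the group mean. Tumour medians for mitosis members (1.37 to 1.52) lie above those for replication members (0.82 to 1.15).

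Summed CPM separated the tissues less fully. Mitosis over replication sums were 0.964, 0.823 and 0.960 in tumours, 0.699, 0.711 and 0.780 in Foxp3ΔJag1 nodes, and 0.843, 0.8003 and 0.707 in Foxp3Ctrl nodes. Tumour replicate 2 lay below Foxp3Ctrl node replicate 1, and the Foxp3ΔJag1 nodes lay within or just under the Foxp3Ctrl node range. At the level of single genes, cyclin B1 over cyclin E1 CPM was 3.98, 2.97 and 3.98 in tumours, 0.839, 1.10 and 1.37 in Foxp3ΔJag1 nodes, and 1.68, 1.39 and 0.838 in Foxp3Ctrl nodes. No tumour overlapped a node in that ratio, and the node genotypes overlapped. Ccnb1 rose more than Ccne1 in tumours (log2 fold changes 2.14 and 0.69). The tissue separation in this ratio restates those values and is not separate support.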

How the data were processed

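RNA-seq was deposited as raw read counts per Ensembl gene by the authors, made with Trimmomatic 0.36, STAR 2.5.2b and featureCounts of Subread 1.5.2 on GRCm38, per the submitters' processing notes. The annotation, strand setting and filters are not stated in the sources used; the labels' protocols name both poly(A) selection and rRNA depletion. Node and tumour counts came from 2 tables joined by gene identifier, of whose 49315 rows 49056 matched GENCODE M21; 3 further tumour columns matched no sample label and were not used.

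Groups followed the sample labels, with 3 mice each. The main test was edgeR 4.0.16 (R 4.3.3) with TMM scaling, filterByExpr and robust quasi-likelihood, fitted on the 6 libraries of each comparison and adjusted over all genes tested; it was tested on simulated data. The alternatives were DESeq2 1.42.0, limma 3.58.1 (voomWithQualityWeights), other scalings and filters, a joint fit, a replicate block and leaving out each library. CPM used library totals, and module medians a pseudocount of 0.5 CPM. Replicate numbers of tumours and nodes mark the same mouse by library name; the correlations of their deviations were -0.07, 0.12 and -0.005. The blocked fit changed no member's call.

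Members, gene lists and tests were chosen with earlier results of these data known. All 45 members could be named, with values of every library for those with the smallest p or the extreme log2 fold changes in a module, and for 12 always given (Mcm2, Pcna, Rrm2, E2f1, Ccne1, Mki67, Top2a, Cdk1, Ccnb1, Foxm1, Plk1, Aurka); Cdc6 was added after its values were seen. Pathway lists gave their 3 smallest p-values, except for a gene not reported here, and the genes named because they fell were likewise chosen after their values were seen. Counts cover reads, not molecules, and 12 members share exon bases with another gene; Ccnb1, Ccnb2, Tyms and Pcna have annotated pseudogenes.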

Additional observations from a re-analysis of the deposited data

How the results depend on the processing

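In the tissue comparison, 44 of 45 members were called higher under every alternative run, and Mcm4 was not called in any. The main edgeR fit called 35.6% of all genes higher. Median log2 fold changes without 1 library ran between 0.84 and 1.04 for replication members and between 1.28 and 1.65 for mitosis members, and the mitosis minus replication difference, 0.535 in the edgeR fit, between 0.44 and 0.61. Library-size scaling moved the median of all genes to -0.11 and those of the modules to 0.90 and 1.44. In the node comparison no member was called under any alternative. Unadjusted p under 0.05 was found for 1 member with DESeq2, 1 with no filter, 2 in the joint fit, 6 with voomWithQualityWeights, 2 without Foxp3ΔJag1 replicate 3 and 27 without Foxp3Ctrl replicate 3, and for 0 under the other alternatives. The share of all genes under that p was not determined for these alternatives. Genes called among all tested were 7 with edgeR, 44 with the DESeq2 Wald test, 16 with no filter on low counts, 17 with voomWithQualityWeights and 11 with the replicate block, and 6 to 21 without 1 library; the cause was not tested. For nodes the numbers only name the samples (correlations -0.19, 0.04 and -0.14, with 1 of 3 best matched to its own number), and the block gave medians of -0.14 and -0.23. The node mitosis minus replication difference, -0.11, ran between -0.21 and -0.05 without 1 library. Directions in nodes turned for 8 members in 12 of 270 values without 1 library, the log2 fold change running between -0.18 and 0.00 for Mcm4, -0.18 and 0.046 for E2f1, -0.20 and 0.075 for Nek2, -0.048 and 0.11 for Rfc3, -0.33 and 0.004 for Ccne2, -0.37 and 0.008 for Cenpf, -0.14 and 0.054 for Cdt1, and -0.087 and 0.21 for Gins1. With 3 mice per group, node SEs of 0.09 to 0.27 limit what difference could be called.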
